A study of Homo sapiens with 7 samples.

Results

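The genes described here encode 10 transcription factors and cofactors of the blood lineages: GATA2, TAL1, LMO2, ZFPM1, KLF1, NFE2, GFI1B, RUNX1, MYB and IKZF1. They were taken by name, for their known roles in blood cells. All 10 had at least 1 probe carrying their name, 55 probes together on the larger of 2 array designs, out of 24687 gene names there. Each gene was read in 2 ways, by its own probes and by the 250 kb window that held most of them, called its home window below. The 10 home windows lay on 10 chromosomes and were 10 of the 7981 windows tested.

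Replication timing was measured in K562 and in U2OS cells on 7 two-colour Agilent oligonucleotide arrays. K562 is a human leukaemia line with erythroid features, and U2OS is a human osteosarcoma line, not of blood origin. Both were given bromodeoxyuridine (BrdU) at 50 µM for 2 h, and 80000 cells were sorted by DNA content to collect early and late S phase separately. The BrdU-labelled DNA of the early fraction carried Cy3 and that of the late fraction Cy5 on every array. The 3 K562 arrays were 1 with a new sorting method, 1 with the old method, and 1 on an array labelled 44k, whose sorting method the labels do not give. The 4 U2OS arrays were 2 labelled manual and 2 labelled automated, without a word on which step that was. Both lines are tumour lines in culture rather than blood or bone tissue, and the labels do not say that the arrays of a line came from separate cultures. The p-values therefore measure the spread between arrays, which may be technical.

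GATA2, TAL1, LMO2 and their partners bind DNA as one complex in blood stem cells and in the red cell and platelet lineages. RUNX1 and MYB act in stem cells and progenitors, and IKZF1 (Ikaros) acts mainly in lymphocyte development. Mammalian chromosomes replicate in domains, each holding many origins that fire at a similar time of S phase. Early domains tend to be rich in genes and open chromatin, and the timing of some domains differs between cell types.

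The probe sequences below are a part of the probes that carry the names of these genes. The window results were read from all kept probes of a window, and the own-probe results from all kept probes of a gene. The 3 IKZF1 and 2 MYB probes are present on both array designs. The RUNX1 probe has the highest value of that gene on the array labelled 44k, and the NFE2 probe is the only one of its gene. Positions are on genome build hg19, as deposited, and letters run in the order of the deposited table. Strand and the place of a probe in an exon or intron were not analysed here, since the annotation supplied was of another build.
IKZF1, chr7:50353062-50353121: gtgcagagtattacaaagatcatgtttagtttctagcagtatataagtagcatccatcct
IKZF1, chr7:50455015-50455072: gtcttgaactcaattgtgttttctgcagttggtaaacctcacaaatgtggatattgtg
IKZF1, chr7:50459333-50459392: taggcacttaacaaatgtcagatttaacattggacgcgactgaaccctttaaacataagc
MYB, chr6:135507017-135507074: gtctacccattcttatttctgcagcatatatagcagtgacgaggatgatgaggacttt
MYB, chr6:135526555-135526614: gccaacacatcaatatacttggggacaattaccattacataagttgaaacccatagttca
RUNX1, chr21:36259789-36259848: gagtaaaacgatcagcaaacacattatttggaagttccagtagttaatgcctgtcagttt
NFE2, chr12:54686527-54686583: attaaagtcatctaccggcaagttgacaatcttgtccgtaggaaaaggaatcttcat

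The values are log2(early/late), the deposited ratio turned so that positive means earlier than the median probe of the same array and negative means later. The home windows held 12 to 24 probes in the larger design. The array labelled 44k was the weakest measurement. Of its spots, 49.7% had a late-fraction signal that the scanner software had replaced by a surrogate because it did not stand above background, against 0.184% to 14.6% on the other 6 arrays. On that array the surrogate share in the home windows was 50.0% for RUNX1 and MYB and at least 66.7% for the other 8, and 3 to 13 of the probes in each window were kept. A ratio with a surrogate is limited by background and not by the late signal itself. As a check of the line labels, the 3 spots of CDKN2A, a gene that K562 lacks, had a summed signal, as log2 relative to the array's median, of -2.67 to -1.34 in K562 and -1.08 to -0.52 in U2OS.

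K562 and U2OS were compared at the home windows to ask whether genes of the blood lineages replicate at a different time in a blood line than in a bone tumour line. IKZF1, MYB and RUNX1 were earlier in K562, NFE2 was later in K562, and the other 6 did not pass the test. The test was limma's lmFit and eBayes over all windows with Benjamini-Hochberg adjustment, and a window was called at an adjusted p under 0.05. That made 4 of 10 home windows, beside 34.7% of all windows. Earlier in K562 were 3 of 10, beside 15.7% of all windows, and later was 1 of 10, beside 19.0%. The median difference, K562 minus U2OS, was -0.31 over the 10 home windows and -0.18 over all windows. Without the array labelled 44k these medians were -0.23 and -0.05, and without the old sorting array they were -0.24 and -0.29. The home windows of the same 4 genes had arrays of the lines that did not overlap, which held for 40.5% of all windows.

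**Figure D1:**
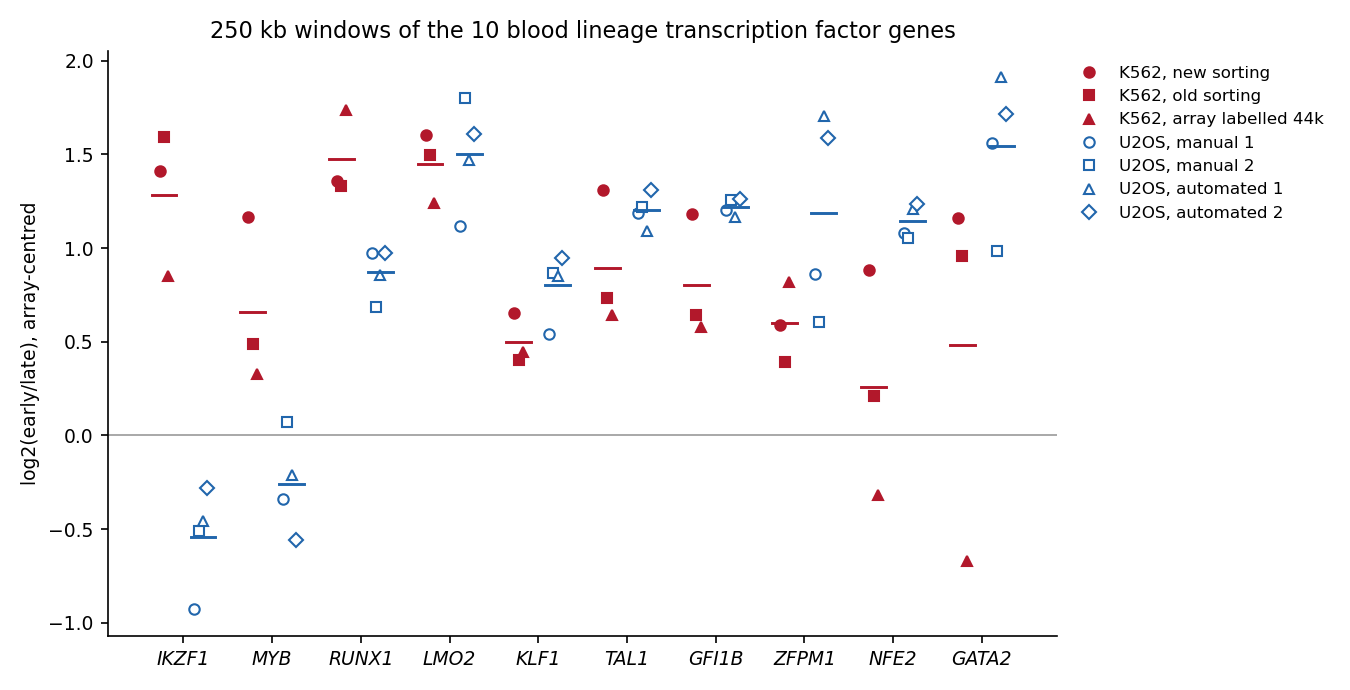
Log2(early/late) of the home window of each of the 10 genes, on each of 3 K562 arrays (filled) and 4 U2OS arrays (open), with horizontal bars at the line means. IKZF1 is the gene whose window lies above 0 on every K562 array and below 0 on every U2OS array. The array labelled 44k has the lowest K562 value of every gene except KLF1, RUNX1 and ZFPM1, and lies below 0 at GATA2 and NFE2.

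Most of these windows were early in both lines. The value was above 0 on all 3 K562 arrays for 8 of 10 genes and on all 4 U2OS arrays for 8 of 10, and on all 7 arrays for 6 of 10. Over all windows the share above 0 was 50.3% for K562, 49.6% for U2OS and 39.3% for all 7 arrays. By rank among all windows of an array, averaged over the arrays of a line, the genes ran from percentile 47.9 to 93.5 in K562 and from 35.5 to 90.1 in U2OS. LMO2 ranked highest in both lines together, at 93.5 in K562 and 90.1 in U2OS. The home windows named between 1 and 16 genes on their probes, with a median of 4 beside 3 for all windows, and their probes had a median GC content of 36.9% beside 36.5%.

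Among the genes of the stem cell and red cell complex, LMO2, the LIM-only bridge protein, had nearly the same value in both lines. Its window (chr11:33750001-34000000) read 1.60 with new sorting, 1.50 with old sorting and 1.24 on the array labelled 44k in K562. The U2OS arrays read 1.12 and 1.80 (manual) and 1.47 and 1.61 (automated). All 7 arrays were early and the lines overlapped, with a difference of -0.05 (SE 0.23, 95% interval -0.56 to 0.46, limma adjusted p = 0.883).

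TAL1, the basic helix-loop-helix partner in that complex, was also early in both. Its window (chr1:47500001-47750000) read 1.31, 0.74 and 0.64 in K562, in the order new sorting, old sorting and array labelled 44k, which is kept below. U2OS read 1.19 and 1.22 (manual) and 1.09 and 1.31 (automated). The new sorting array was level with the highest U2OS array, and the other K562 arrays lay below all U2OS arrays. The difference was -0.31 (SE 0.23, 95% interval -0.81 to 0.19, limma adjusted p = 0.326). It was -0.51 without the new sorting array (adjusted p = 0.0818) and -0.18 without the array labelled 44k (adjusted p = 0.579). In K562 the neighbouring window 250 kb to the left was earlier than in U2OS, at 1.48 ± 0.09 against 0.52 ± 0.18 (SD, n = 3 and 4).

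GATA2, a zinc finger factor of stem cells and progenitors, had the lowest difference of the 10, which did not pass the test. Its window (chr3:128000001-128250000) read 1.16, 0.96 and -0.67 in K562, and 1.56 and 0.98 (manual) and 1.91 and 1.72 (automated) in U2OS. The array labelled 44k stood below 0, and the other K562 arrays were close to the lowest U2OS array. The difference was -1.06 (SE 0.41), and the limma adjusted p of 0.0693 did not pass. Without the array labelled 44k it was -0.49 (adjusted p = 0.240), without new sorting -1.40 (adjusted p = 0.0277) and without old sorting -1.30 (adjusted p = 0.0205). Surrogate late signals made up 56.5%, 34.8% and 87.5% of the spots there in K562, 30.4% and 60.9% on the manual arrays and 0% on both automated arrays. Their part in the difference was not tested.

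ZFPM1 (FOG1) is the cofactor that binds GATA factors. Its window (chr16:88500001-88750000) read 0.59, 0.39 and 0.82 in K562, 0.86 and 0.61 on the manual U2OS arrays, and 1.70 and 1.59 on the automated ones. The manual arrays overlapped K562 and the automated arrays lay above all others. K562 minus U2OS was -0.59 (SE 0.30, limma adjusted p = 0.152).

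KLF1, an activator of red cell genes, read 0.65, 0.40 and 0.44 in K562 and 0.54 and 0.87 (manual) and 0.85 and 0.95 (automated) in U2OS (chr19:12750001-13000000). The lines overlapped, with a difference of -0.30 (SE 0.21, 95% interval -0.76 to 0.15, limma adjusted p = 0.290). GFI1B, a repressor needed for red cells and platelets, read 1.18, 0.64 and 0.58 in K562 (chr9:135750001-136000000), while the 4 U2OS arrays were tightly grouped between 1.17 and 1.26. Only the new sorting array of K562 reached that range, and the difference was -0.42 (SE 0.22, limma adjusted p = 0.168). Without the new sorting array the difference was -0.61 and passed (adjusted p = 0.0425).

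NFE2, the subunit of a leucine zipper factor that acts on globin and platelet genes, was the gene called later in K562. Its window (chr12:54500001-54750000) read 0.88, 0.21 and -0.32 in K562, and 1.08 and 1.05 (manual) and 1.21 and 1.24 (automated) in U2OS. All K562 arrays lay below all U2OS arrays, with new sorting nearest and the array labelled 44k farthest. The difference was -0.88 (SE 0.28, limma adjusted p = 0.0288). Without the array labelled 44k it was -0.60 (adjusted p = 0.0907), and leaving out any single U2OS array gave adjusted p between 0.0517 and 0.0727. Normexp background correction with an offset of 50 gave -0.24 (adjusted p = 0.527). Surrogate late signals made up 40.0%, 25.0% and 87.5% of the K562 spots in this window, 25.0% and 40.0% of the manual and 5% of each automated array's spots, and their part in the difference was not tested. The other genes named on this window's probes were CBX5, COPZ1, HNRNPA1 and SMUG1. NFE2's own probe gave a kept value on the 2 automated U2OS arrays only, 3.31 and 3.49.

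RUNX1, the DNA-binding subunit of core binding factor, was early in both lines and slightly earlier in K562. Its home window (chr21:36250001-36500000) read 1.36, 1.33 and 1.74 in K562, and 0.97 and 0.68 (manual) and 0.86 and 0.97 (automated) in U2OS. All K562 arrays lay above all U2OS arrays, by 0.60 between the means (SE 0.21, limma adjusted p = 0.0466). That call was close to the threshold. It was lost without the array labelled 44k (0.47, adjusted p = 0.0856) and without any single U2OS array (adjusted p between 0.0788 and 0.113), and under normexp with an offset of 50 (0.30, adjusted p = 0.408). RUNX1 spans a second window with 8 of its 25 probes, next to the left, where K562 read 1.09 ± 0.34 and U2OS 0.86 ± 0.14 (SD, n = 3 and 4; difference 0.23, limma adjusted p = 0.463).

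MYB, a factor of progenitor growth, sat at the edge of an early region. Its window (chr6:135500001-135750000) read 1.16, 0.49 and 0.33 in K562, and -0.34 and 0.07 (manual) and -0.21 and -0.56 (automated) in U2OS. All K562 arrays were above 0 and above all U2OS arrays, of which 1 was just above 0. The difference was 0.92 (SE 0.26, limma adjusted p = 0.0184). It was 0.67 without the new sorting array (adjusted p = 0.0550), 0.82 without automated replicate 2 (adjusted p = 0.0626) and 0.78 with loess within arrays (adjusted p = 0.0994). With 100 kb windows on the 6 larger arrays it was 0.53 (adjusted p = 0.277). AHI1 was the other gene named on this window's probes.

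IKZF1, the lymphoid zinc finger factor, differed most. Its window (chr7:50250001-50500000) read 1.41, 1.59 and 0.85 in K562, and -0.93 and -0.51 (manual) and -0.45 and -0.28 (automated) in U2OS. Every K562 array was early and every U2OS array late, a pattern found in 5.4% of all windows. The difference was 1.83 (SE 0.25, 95% interval 1.27 to 2.39, limma adjusted p = 0.000245). By rank the window lay at percentile 81.7, 95.3 and 82.6 in K562 and between 28.2 and 41.2 in U2OS. The call held in all 20 alternatives that could test it, with differences between 1.22 and 2.12. Leaving out every surrogate signal, or asking for at least 5 probes per window, left this window untested. On the array labelled 44k it kept 3 probes. Surrogate late signals made up 41.7%, 0% and 66.7% of its K562 spots, 0% and 8.33% on the manual arrays and 0% on both automated arrays. Their part in the difference was not tested. IKZF1 was the only gene named on the probes of this window.

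The genes' own probes were tested in the same way over 14371 genes, for the 7 of 10 members that had a kept probe on all 7 arrays. GATA2, NFE2 and ZFPM1 had none on the array labelled 44k and got no test. IKZF1 was the member that passed, 1 of 7 beside 17.2% of all genes. Its own-probe mean was 1.65, 1.82 and 0.85 in K562, and -1.19 and -0.59 (manual) and -0.46 and -0.34 (automated) in U2OS. The difference was 2.09 (SE 0.34, limma adjusted p = 0.00191). These probes are 8 of the 12 in the IKZF1 window, so the values are not a separate measurement.

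The separation of the lines ran along the whole of IKZF1. At 8 of its 8 probes, both K562 arrays of the larger design lay above all 4 U2OS arrays, which held for 15.0% of the 158822 probes with a value on these 6 arrays. The probe means were 0.99 to 2.50 in K562 and -1.11 to -0.12 in U2OS. Of the 3 IKZF1 probes printed above, the first read 1.64 and 1.84 on those K562 arrays and -0.21 on the array labelled 44k. The probe at chr7:50459333-50459392 read 1.41, 1.27 and 1.71, while its U2OS values lay between -0.48 and 0.15. In RUNX1, both K562 arrays lay above all U2OS arrays at 9 of 25 probes and below them at 0, beside 15.0% and 17.0% of all probes. The RUNX1 probe printed above is the one with the highest RUNX1 value on the array labelled 44k, so it is not a typical probe. It read 1.90, 2.04 and 2.49 in K562 and -0.03 to 1.56 in U2OS. The opposite order was found in TAL1 and ZFPM1. There both K562 arrays lay below all U2OS arrays at 2 of 3 and 2 of 6 probes, and above them at 0. In GATA2, KLF1, LMO2, MYB and GFI1B both counts were 0, and NFE2 had no probe with a value on these 6 arrays. Single probes of IKZF1 and RUNX1 varied widely around the window mean, as the plot of own probes shows.

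**Figure D2:**
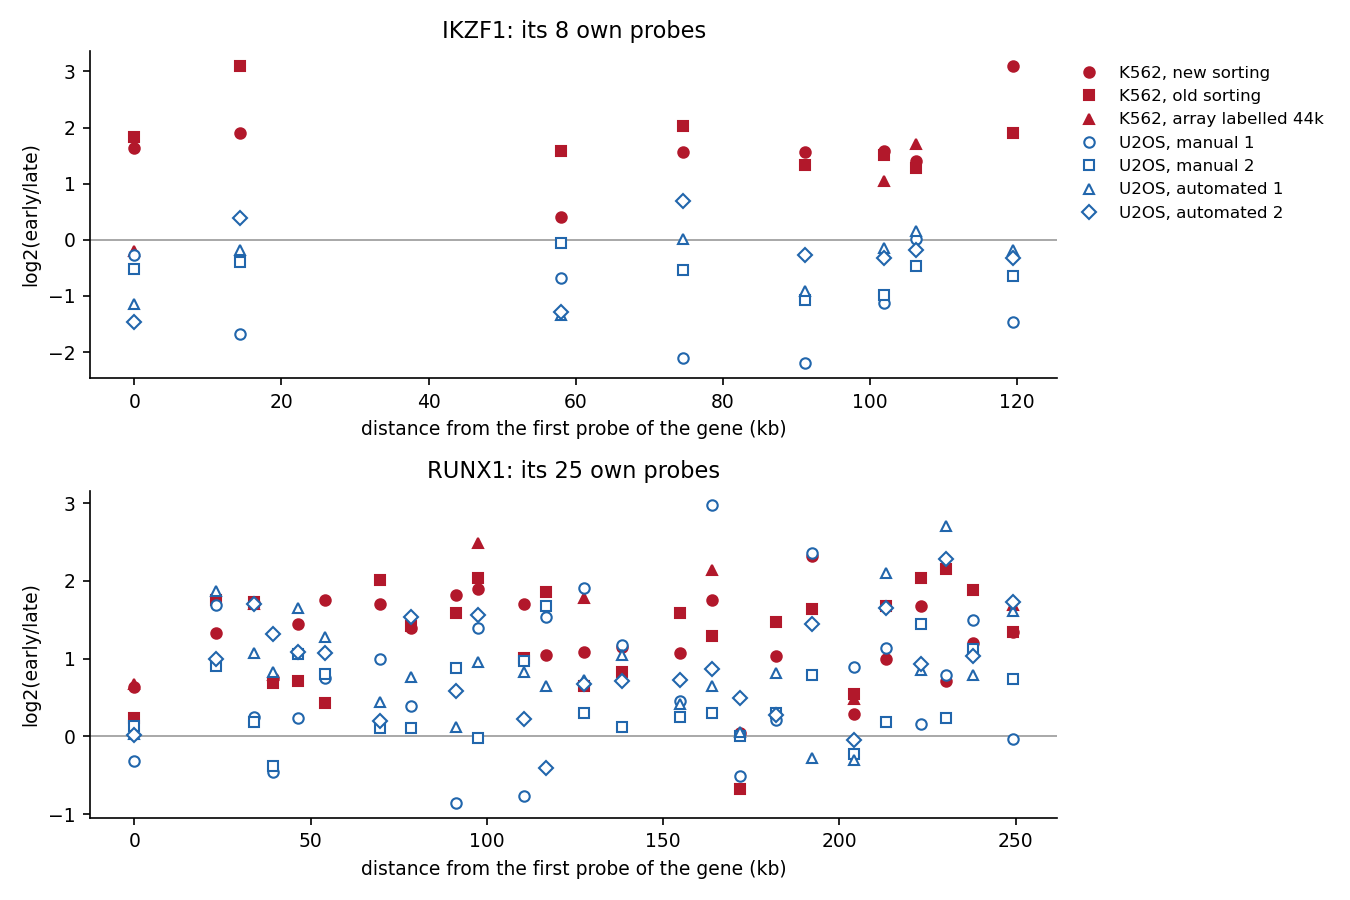
Log2(early/late) of single probes along IKZF1 (8 probes, upper panel) and RUNX1 (25 probes, lower panel) against the distance from the first probe in kb, filled symbols for K562 and open symbols for U2OS. At each IKZF1 probe the K562 circles and squares lie above all open symbols, while in RUNX1 this holds at 9 of 25 probes.

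The remaining own-probe means did not pass the test. For RUNX1 the difference was 0.60 (SE 0.26, limma adjusted p = 0.160), nearly that of its window. MYB, whose 3 probes are a small share of the 21 in its window, differed by 0.51 (SE 0.34, limma adjusted p = 0.361), and its 2 printed probes read 1.20 and -0.33 with new sorting against -0.50 and 1.61 with old sorting. TAL1 differed by -0.77 (SE 0.31, limma adjusted p = 0.118). GFI1B, KLF1 and LMO2 differed by -0.37, -0.03 and -0.09.

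The surroundings of the 4 called genes differed in extent. Around IKZF1 the run of adjacent windows called earlier in K562 was 3 windows, 750 kb long (chr7:50000001-50750000). Its largest difference, 1.96, was in the window left of the gene, where K562 read -0.03 ± 0.21 and U2OS -1.99 ± 0.26 (SD, n = 3 and 4). The picture turned on both sides. At 500 kb to the left both lines were late, at -2.24 ± 0.52 in K562 and -2.23 ± 0.16 in U2OS. At 750 and 1000 kb to the right K562 was the later line, with differences of -1.08 and -1.78 (limma adjusted p = 0.00494 and 0.00035). K562 thus had a narrow early peak over IKZF1, and U2OS a low rise that reached 0.18 ± 0.19 at 500 kb to the right.

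Around MYB the lines were close over part of the left side and apart on the right. From 1500 to 500 kb to the left, K562 and U2OS differed by at most 0.30 in size and no window passed. At 250 kb to the left K562 was earlier, at 0.95 ± 0.62 against 0.12 ± 0.22 (SD, n = 3 and 4; limma adjusted p = 0.0464). At 1750 kb to the left K562 was the later line, at -1.67 ± 0.19 against -0.73 ± 0.59 (limma adjusted p = 0.0372). To the right, U2OS was late from 250 kb on, at -1.57 ± 0.68, where K562 read 0.14 ± 0.26 (SD, n = 3 and 4). The difference was 2.21 at 1000 kb, where K562 read 1.30 ± 0.17 and U2OS -0.92 ± 0.66 (limma adjusted p = 0.000402). The unbroken run of called windows was again 3 windows, 750 kb, because the window at 500 kb did not pass.

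For RUNX1 the called run was the home window alone (250 kb). At 750 kb to its right K562 was the later line, at -0.07 ± 0.14 against 0.79 ± 0.16 (limma adjusted p = 0.0076). K562 was the earlier line at 1000 kb to the left and at 1750 kb to the right, by 0.71 and 0.86 (limma adjusted p = 0.047 and 0.0101). For NFE2 the run was 2 windows (500 kb). At 750 kb to the right of NFE2 the direction was opposite, with K562 early at 0.70 ± 0.31 and U2OS late at -0.97 ± 0.23 (SD, n = 3 and 4). Near GATA2 and TAL1 the clearest differences were also away from the gene. At 2000 kb to the right of GATA2, K562 read 1.37 ± 0.58 and U2OS -1.02 ± 0.22. The other called windows within 2000 kb of GATA2 were later in K562, with differences of -1.09 to -0.59. They lay at 2000, 1750 and 1000 kb to the left and at 500 and 1000 kb to the right. At 750 kb to the right of TAL1, K562 read -0.61 ± 0.59 and U2OS 1.26 ± 0.30.

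**Figure D3:**
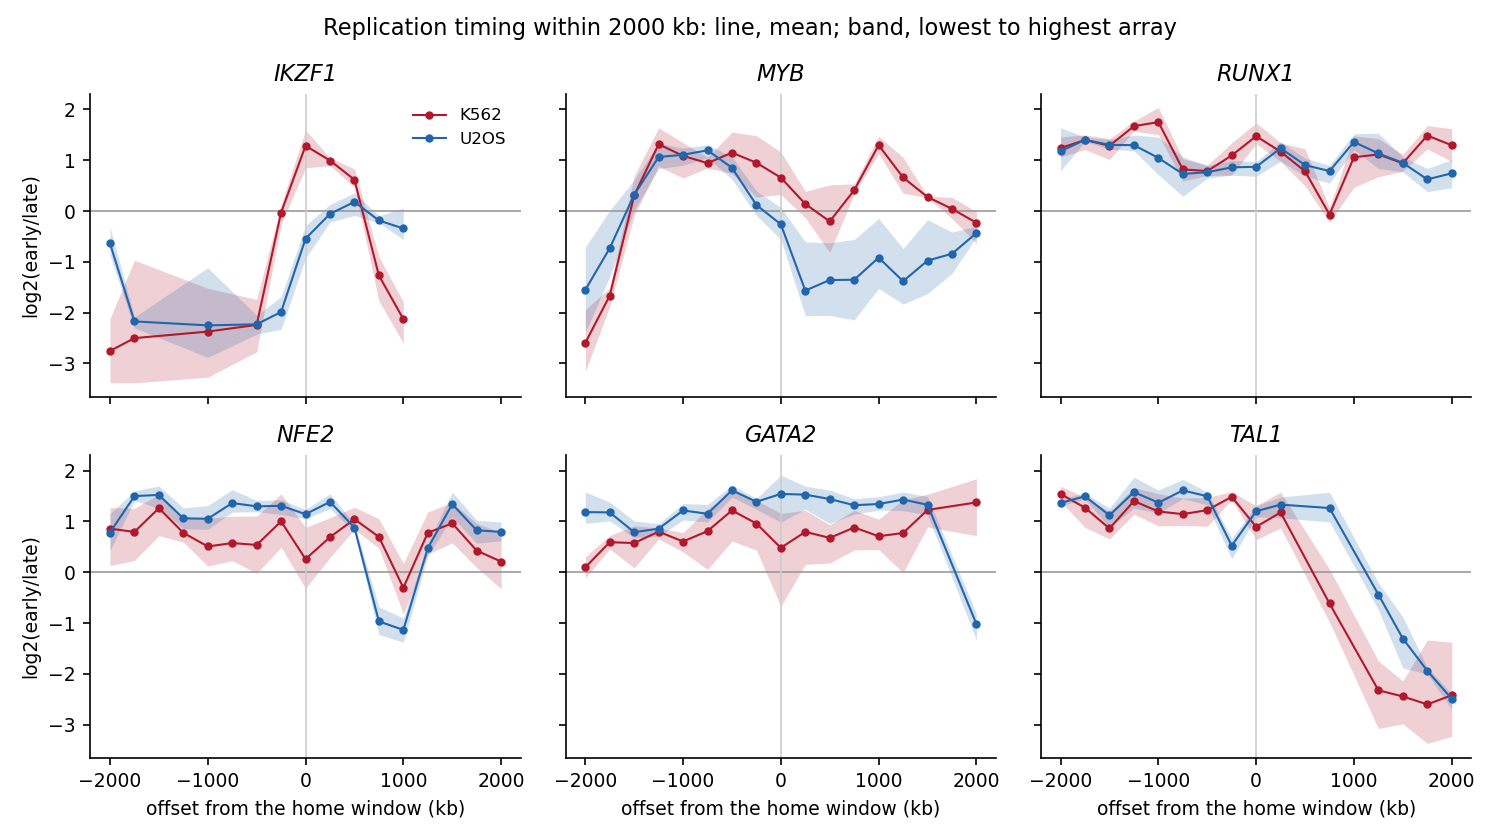
Log2(early/late) of 250 kb windows within 2000 kb on either side of the home window (offset 0) of 6 genes, as the mean (line) and the lowest to highest array (band) of 3 K562 and 4 U2OS arrays; lines join across windows without a value. IKZF1 shows a K562 peak over the gene between late flanks, MYB shows U2OS dropping below 0 to the right, and NFE2, GATA2 and TAL1 show crossings or gaps between the lines away from the gene.

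The width of the surrounding domain was taken on each array as the unbroken run of windows with the sign of the home window, after a running median of 3 windows. Up to 2 windows without a value were bridged. At 8 of 10 genes the domain was early on all 7 arrays, and its mean width was smaller in K562 at 7 of those 8, beside 56.1% of the 3329 windows early on all arrays. At 4 of the 8 the widths of the lines did not overlap, beside 42.1%. Each gene was tested by a two-sided exact permutation test over arrays, whose smallest possible p with 3 against 4 arrays is 0.0571, so none could pass 0.05.

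GATA2 lay in an early domain of 5000, 7000 and 4750 kb in K562 and of 7750 kb on all 4 U2OS arrays. K562 was narrower on the left and reached farther on the right, by 2750 kb beyond the home window against 1500 kb. The smoothed value at GATA2 was above 0 on the array labelled 44k although its home window was not. With domains ended only where the value passed 0.5 below 0, the GATA2 widths of the lines overlapped (7417 and 7875 kb, exact permutation p = 0.629), as they did with mean centring of the arrays (7333 and 7750 kb). TAL1 lay in 5250, 5750 and 5500 kb in K562 and 9250 kb on every U2OS array. RUNX1 lay in 6000, 5750 and 6000 kb in K562 and 8250 kb on every U2OS array. In these 3 genes and in GFI1B no K562 width reached a U2OS width (exact permutation p = 0.0571 each, 0.114 after Benjamini-Hochberg adjustment over the 8 genes).

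GFI1B had the widest gap, with 7750, 7750 and 3500 kb in K562 and 14750 to 18000 kb in U2OS. When a domain was ended only where the value passed 0.5 below 0, the means were 16667 kb in K562 and 18000 kb in U2OS (exact permutation p = 0.857). KLF1 lay in 10250, 10750 and 10500 kb in K562, and in 10000 kb on 1 manual and 19500 kb on the other 3 U2OS arrays (exact permutation p = 0.229). ZFPM1 lay in 3250, 3250 and 6500 kb in K562 and 6500 kb in U2OS (exact permutation p = 0.286). LMO2 had nearly equal widths, 4250 to 4500 kb in K562 and 4500 kb in U2OS (exact permutation p = 0.286). NFE2 was the exception in direction, with 12500 kb on both larger K562 arrays, 4000 kb on the array labelled 44k, and 8750 to 9000 kb in U2OS (exact permutation p = 0.971). Of the U2OS domains 25 of 40, and of the K562 domains 7 of 30, ended on at least 1 side without a change of sign. They ended there at a stretch without values or at a chromosome end. Widths that ended at a stretch without values inside a chromosome are lower limits.

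The domains of the other 2 genes were of opposite kinds and were not tested. IKZF1 lay in an early domain of 750 to 1000 kb in K562, the narrowest of the 10, and in a late domain of 2750 to 3250 kb in U2OS. Counting each early domain of an array once, the median width was 1250 kb on each K562 array and 1500 to 1750 kb in U2OS. Counted per window, as for the genes here, the median early width was 3000 to 3500 kb in K562 and 3500 to 4000 kb in U2OS. MYB lay in an early domain of 3000 to 4750 kb in K562. In U2OS it fell in a late domain of 4250 to 4500 kb on 3 arrays and at the end of an early domain of 2000 kb on manual replicate 2.

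**Figure D4:**
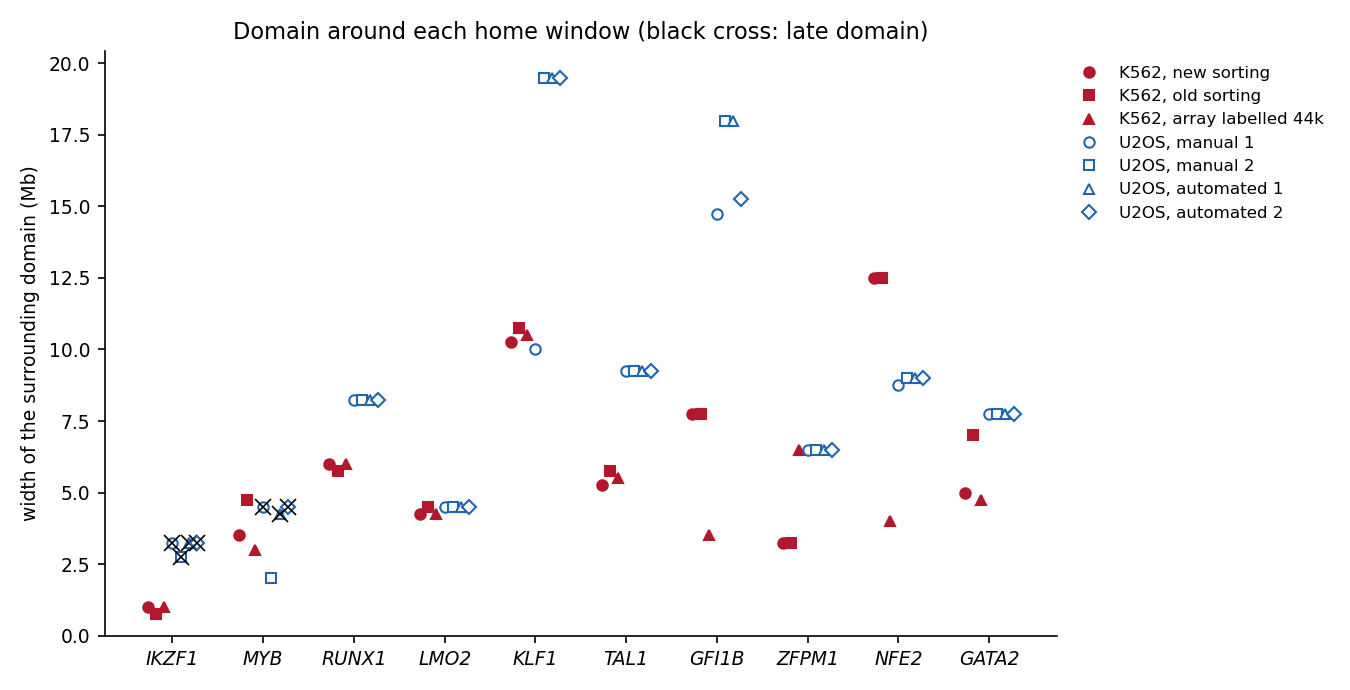
Width in Mb of the domain around the home window of each gene, per array, filled for K562 and open for U2OS, with a black cross where the domain is late. U2OS points repeat the same width at GATA2, TAL1, RUNX1, LMO2 and ZFPM1, K562 points lie lower at GATA2, TAL1, RUNX1 and GFI1B, and the late crosses are at IKZF1 and MYB in U2OS.

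Handling was the condition that U2OS arrays could test, with 2 automated against 2 manual arrays. ZFPM1 was the 1 of 10 home windows that passed, beside 17.7% of all windows, and it was earlier on the automated arrays. The automated arrays read 1.70 and 1.59 and the manual ones 0.86 and 0.61. They differed by 0.91 (SE 0.16, limma adjusted p = 0.00833). Without automated replicate 1 the difference was 0.86 and did not pass (adjusted p = 0.0538). Surrogate late signals there were 8.70% and 43.5% on the manual and 4.35% on each automated array, and their part was not tested. Both manual arrays shared a slide, so handling and slide cannot be told apart. For the other 9 genes the difference ran from -0.25 (MYB) to 0.54 (GATA2).

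The K562 arrays differ in sorting method or array format with 1 array each, so their values are given without a test. The new sorting array read higher than the old sorting array at 9 of 10 home windows, with a median gap of 0.23. Over all windows the new sorting array was the higher in 45.1%, and over the 3140 windows above 0 on all 7 arrays in 68.9%. Surrogate early signals made up 12.8% of the spots on the old sorting array and 2.30% on the new. Early signals stood well above background at 44.8% and 86.9% of the spots, in the same order. Their part in the gap was not tested. IKZF1 was the gene where old sorting read higher, by 0.19. The new sorting array also read higher than the array labelled 44k at 8 of 10, beside 54.0% of all windows, most at GATA2 by 1.83 and NFE2 by 1.20. RUNX1 and ZFPM1 read higher on the array labelled 44k.

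The other 26 blood transcription factors on 2 lists of related genes all had a home window, and 9 of 26 were called, beside 34.7% of all windows. Later in K562 were 8 of 26, beside 19.0% of all windows. Earlier was 1 of 26, GFI1, the repressor related to GFI1B, beside 15.7%. Among 13 erythroid and megakaryocyte partners 6 passed (GATA1, LDB1, CBFA2T3, FLI1, ERG and GFI1). Among 13 myeloid and lymphoid factors 3 passed (SPI1, CEBPE and EBF1). GATA1 and LDB1 were later in K562, with differences of -0.78 and -0.59 (limma adjusted p = 0.0165 and 0.0473). The median difference was -0.49 for the first list and -0.26 for the second, beside -0.18 for all windows.

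ERG and FLI1, of the ETS family, had differences larger in size than any member. ERG (chr21:39750001-40000000) read -1.37 ± 0.12 in K562 and 1.03 ± 0.13 in U2OS (SD, n = 3 and 4), a difference of -2.40 (SE 0.20, limma adjusted p = 1.18e-05). It lies on the chromosome of RUNX1, beyond the right end of the K562 early domain of RUNX1 and within the U2OS one. FLI1 (chr11:128500001-128750000) read -1.73 ± 0.72 and 0.46 ± 0.32, a difference of -2.19 (SE 0.33, limma adjusted p = 0.000407). Both were late on every K562 array and early on every U2OS array, the reverse of IKZF1. The other ETS factors on the lists did not show this. ETV6, SPI1 and SPIB differed by -0.28, -0.68 and -0.28 and were above 0 on every array of both lines.

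CBFA2T3, a corepressor of the TAL1 complex, read -0.76 to 0.44 in K562 and above that range on every U2OS array, up to 1.50. Its difference was -1.09 (limma adjusted p = 0.0304), and its window lies next to that of ZFPM1. EBF1, a B cell factor, read -0.84 ± 0.58 and 0.19 ± 0.58, a difference of -1.03 (limma adjusted p = 0.0446). Leaving out 1 array ended the CBFA2T3 call for 4 arrays (manual replicate 1, both automated arrays and the array labelled 44k; adjusted p 0.0530 to 0.131). The CBFA2T3 difference was -0.71 without the array labelled 44k and -1.14 to -0.96 without each of the other 3. For EBF1 it did so for new sorting, both automated arrays and the array labelled 44k (adjusted p 0.115 to 0.139).

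**Figure D5:**
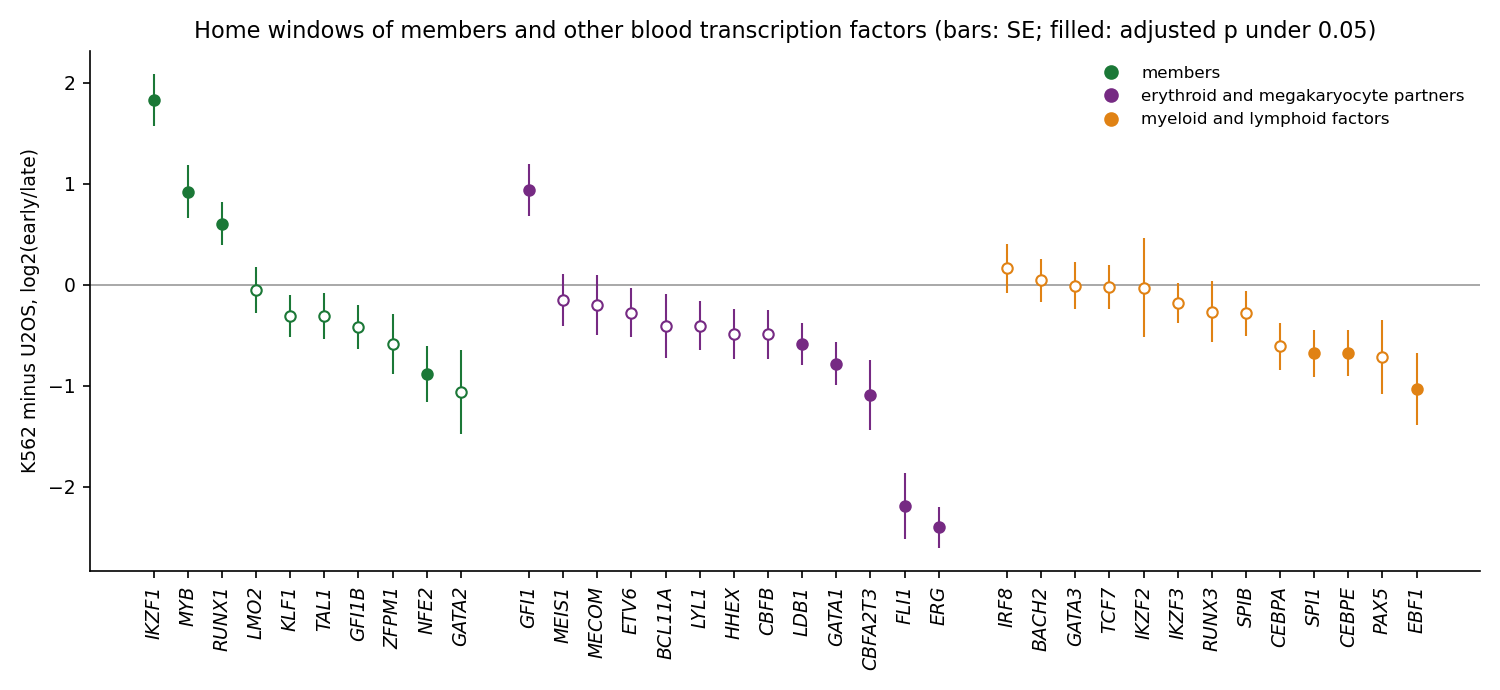
K562 minus U2OS in log2(early/late) of the home windows of the 10 members and of 26 other blood transcription factors in 2 lists, with bars for the standard error; filled points passed limma's adjusted p under 0.05. IKZF1, at 1.83, is the highest of the 36 points, and FLI1 and ERG, at -2.19 and -2.40, are the lowest.

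The genes on other chromosomes whose own-probe values were most like those of IKZF1 over the 7 arrays were DECR1, ARHGAP6 and TTC27. Their root mean square differences from IKZF1 were 0.20, 0.24 and 0.25 log2 units, out of 13656 genes compared. DECR1 averaged 1.31 in K562 and -0.73 in U2OS, beside 1.44 and -0.65 for IKZF1. GATA2, the gene with the lowest difference, could not be matched in this way because it had no kept probe of its own on the array labelled 44k.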

How the data were processed

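BrdU-labelled early and late S-phase DNA of K562 (3 arrays) and U2OS (4 arrays) was measured on 2-colour Agilent arrays. Per the file headers, the deposited log10 ratio (late over early) and the background-subtracted, dye-normalized intensity of each spot were made with Agilent Feature Extraction 11.5.1.1. The submitters' processing notes name version 9.1, so the version is uncertain. The deposited mean and background intensity values entered the normexp alternatives. Here the ratio was turned to log2(early/late). Spots with a ratio of exactly 0 and outlier spots were left out, repeated probes were averaged, and the median probe of every array was set to 0. Windows of 250 kb needed 3 probes on every array. limma 3.58.1 (R 4.3.3) gave differences with Benjamini-Hochberg adjustment, and SciPy 1.17.1 the exact permutation tests of widths. Scripts were tested on simulated data. The genes, lists and tests were chosen with earlier results of these data known. Among other blood factors, named genes were those past the threshold with an absolute difference of at least 1. ETV6, SPI1, SPIB, CEBPE, GFI1, GATA1 and LDB1 fall outside that rule and were named after their values were seen. The number of arrays limits the precision. Same-numbered manual and automated U2OS arrays did not deviate together (correlation -0.04), so the numbers do not pair them. No slide held both lines, and slide was tried as a random block. Alternatives covered background correction, normalization, probe filters, window size and leaving out each array.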

Additional observations from a re-analysis of the deposited data

Results flagged for a closer look

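At 4 home windows the K562 and U2OS arrays differed by the limma test over all windows. The differences, K562 minus U2OS in log2(early/late), were 1.83 for IKZF1, 0.92 for MYB, 0.60 for RUNX1 and -0.88 for NFE2. The 4 U2OS values of each home window and of each gene's own probes were examined for a single distant array, which made 19 sets with a value on every array, and 0 held one.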

How the results depend on the processing

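Of the 10 home windows, 4 were called between the lines. This became 2 with normexp (offset 50 or 0) or loess (21.0%, 31.4% and 28.0% of all windows), 1 of 5 without any surrogate signal (29.0%), 1 of 9 with 100 kb windows (23%), 1 with a difference of at least 1 (24.9%), and 8 when the spread was fitted over the 5 label groups, where 65.0% of all windows passed. Leaving out 1 array gave 1 to 5 (27.7% to 40.1%). The 2768 of all windows became 1409 of 4863, 1633 with 500 kb windows, 5397 of 23500 with 100 kb windows, 1621 with at least 5 probes and 5187 with 5 label groups. The 9 other blood factors became 4 with normexp (offset 50), loess or a difference of at least 1, 5 with mean centring or 100 kb windows, 3 of 15 without any surrogate signal, 15 with 5 label groups, and 2 to 9 without 1 array. Over these settings the median difference of all windows ran from -0.30 (loess) to -0.03 (without any surrogate signal). With slide as a random block 3 home windows were called. The 1 own-probe call became 2 with ratios of exactly 0 kept, GATA2 being the addition. Narrower K562 domains at 7 of 8 genes became 2 of 4 without any surrogate signal.

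With the replicate number as a block (numbers that do not pair the arrays), 2 home windows differed by handling, beside 23.9% of all windows, in place of 1. The count was 9 with normexp (offset 50), 4 (offset 0) and 3 with loess, beside 73.2%, 39.5% and 23.5% of all windows, and 0 to 2 without 1 array (5.78% to 30.0%).

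Directions turned mostly for differences near 0 that were not called. For the LMO2 window between lines they were 0.036 with mean centring, 0.11 with equal spread, 0.0037 without dim probes and 0.025 with 500 kb windows, and -0.18 to 0.052 without 1 array. For handling, TAL1 gave 0.33 (limma adjusted p = 0.00812) and 0.20 with normexp, 0.22 with loess, 0.11 with mean centring, 0.088 without dim probes and 0.15 with 100 kb windows, and -0.11 to 0.10 without 1 array. GFI1B gave 0.44 (limma adjusted p = 0.00107), 0.25, 0.086, 0.095 and 0.13 under the first 5 of these, and -0.062 to 0.034 without 1 array. RUNX1 gave -0.056 without any surrogate signal and -0.059 to 0.23 without 1 array, KLF1 -0.049 with 100 kb windows, and LMO2 -0.26 to 0.43 without 1 array. For own probes between lines, KLF1 gave 0.22 and 0.13 with normexp, 0.055 with mean centring, 0.083 with equal spread, 0.10 without dim probes, 0.0285 with ratios of 0 kept and 0.22 without any surrogate signal, and -0.28 to 0.18 without 1 array. LMO2 gave 0.058 with equal spread and -0.47 to 0.21 without 1 array. The cause of these changes was not tested. Keeping ratios of 0 and leaving out surrogate signals were chosen after seeing the data. Signal over background in the late channel limits the array labelled 44k most.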
